A study of Mus musculus with 11 samples.

Results

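The vacuolar proton pump genes described here are the protein-coding genes whose symbols start with Atp6v0, Atp6v1 or Atp6ap. The count tables hold 26 of them among 21764 protein-coding genes and 50686 gene identifiers in all. Counts were present for 23 of the 26. Atp6v1e2, the E isoform known from testis, Atp6v1g3, the G isoform known from kidney, and Atp6v1fnb, which is named for its neighbour Atp6v1f and is not a pump subunit, had 0 counts in all 11 libraries. The processed pseudogenes Atp6v0c-ps1 and Atp6v0c-ps2 were left out by the rule.

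The libraries came from gliomas of GL261, a mouse glioma cell line, grown in the brains of C57BL/6 mice. Bulk tumour RNA was taken from formalin-fixed, paraffin-embedded (FFPE) slides in 3 samples of Cx3cr1-Rheb1 Δ/Δ mice (replicates 26, 36 and 37) and 3 of Rheb1 fl/fl mice (replicates 35, 38 and 110). Tumour-associated microglia (TAM-MG), sorted live as CD11b+ CD45low cells, gave 3 samples of Cx3cr1-Rheb1 Δ/Δ mice (replicates 54, 63 and 65) and 2 of Rheb1 fl/fl mice (replicates 74 and 78). In the Δ/Δ mice a tamoxifen-inducible Cre (CreERT2), knocked into the Cx3cr1 locus, deletes floxed exon 3 of Rheb1 in Cx3cr1-expressing cells, while the fl/fl mice carry the floxed gene without Cre. Hence the genotypes also differ at the Cx3cr1 locus, and any effect of this on the values was not tested. All mice of both genotypes received tamoxifen and were injected with GL261 cells 3 weeks later, at 6 weeks of age. They were sampled around 3 weeks after injection, and the exact day of each library is not given. The labels call the groups KO and WT.

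The vacuolar ATPase (V-ATPase) pumps protons into lysosomes, endosomes and synaptic vesicles. Its peripheral V1 sector (subunits A to H) hydrolyses ATP and turns a rotor, and its membrane V0 sector (subunits a, c, c'', d and e) carries the protons across. Several subunits exist as isoforms encoded by separate genes, some used in most cells and others in neurons, kidney, bone or testis. In macrophages and microglia the pump acidifies the lysosome, and on the same membrane it takes part in the docking of mTOR complex 1 (mTORC1), which the small GTPase Rheb switches on. Many pump and lysosome genes share a regulator, the transcription factor TFEB, which mTORC1 keeps out of the nucleus and which binds motifs built on the letters CACGTG.

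The 11 libraries held between 14940787 and 29947977 counts each. In bulk tumours Rheb had 1963 to 3195 counts in the Δ/Δ tumours, against 5222 to 6263 in the fl/fl tumours. In TAM-MG it had 1520 to 1822 counts in Δ/Δ samples, against 2775 and 3181 in fl/fl samples. The groups did not overlap in either experiment. In CPM (counts scaled to a common library total) TAM-MG had 84.7 to 89.5 in Δ/Δ samples, against 103 and 204 in fl/fl samples. Bulk tumours had 105 to 190 CPM, against 196 to 286 CPM. Rheb had an adjusted p of 0.55 in TAM-MG and 0.43 in bulk tumours by edgeR's quasi-likelihood test. Of all genes, 11.5% in TAM-MG and 9.23% in bulk tumours had all Δ/Δ values below fl/fl. The 12 microglia and macrophage markers summed to between 46482 and 69145 CPM in TAM-MG and to between 691 and 3889 CPM in bulk tumours. Xist had 10643 counts in the bulk fl/fl tumour 35 and at most 5 in every other library. Atp6ap1 and Atp6ap2 lie on the X chromosome. CPM values below are scaled by the TMM method over all 11 libraries, and fold changes come from the fit of the experiment named.

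Sequences are shown first for 2 reasons, the motif that TFEB binds and a gene of which part of the sequence recurs in a pseudogene. RefSeq promoters of GRCm38.p6, running from 250 bases before to 50 bases after the transcription start, were at hand for 19 of the 26 genes. The letters CACGTG, which read the same on both strands, occurred in 4 of these 19 promoters (21.1%) and in 7.24% of all 27025 promoters of the table. The longer TCACGTGA, which contains CACGTG, occurred in 3 of the 19 (15.8%) and in 1.01% of all promoters. None of the 19 had GT before and AC after the CACGTG, against 0.359% of all promoters. A match in these letters is a description of the sequence and not of binding. The 5 sites are shown on the strand of their gene, in 30 bases each, with the motif in capitals.
Atp6v0b, first site, chr4:117887348-117887377, minus strand: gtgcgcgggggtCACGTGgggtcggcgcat
Atp6v0b, second site, chr4:117887330-117887359, minus strand: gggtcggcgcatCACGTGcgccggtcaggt
Atp6v0d1, chr8:105566050-105566079, minus strand: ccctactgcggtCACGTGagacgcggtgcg
Atp6v0e, chr17:26676387-26676416, plus strand: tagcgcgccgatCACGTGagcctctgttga
Atp6v1a, chr16:44139373-44139402, minus strand: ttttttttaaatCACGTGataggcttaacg

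The motif began 36 and 18 bases before the start of Atp6v0b (c'' subunit), 3 bases before that of Atp6v0d1 (d subunit) and 131 bases before that of Atp6v1a (the catalytic A subunit), and at base 4 of the transcript of Atp6v0e (e subunit). These 4 genes did not move alike between the sorted cells and the bulk tumours, as described with the values below.

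Atp6v0c encodes the proteolipid c subunit that forms the rotor ring. Of the 465 bases of its coding sequence, the last 354 are identical to the processed pseudogene Atp6v0c-ps2. Of all 75-base windows of this coding sequence, the length of a read, 80.8% occur in that pseudogene. Over the whole protein-coding transcripts of Atp6v0c, 23.7% of such windows occur in either pseudogene, and the rest were found in no other gene. The stretch below shows bases 92 to 211 of the coding sequence of Atp6v0c on chromosome 17, with the first 100 of the identical bases in capitals.
Atp6v0c, coding bases 92 to 211: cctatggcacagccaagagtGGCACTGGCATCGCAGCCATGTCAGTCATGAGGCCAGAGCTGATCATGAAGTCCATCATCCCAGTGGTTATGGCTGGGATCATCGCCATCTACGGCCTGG

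The 2 deposited measures of Atp6v0c differed. Salmon's length-scaled values, in TPM (transcript abundance scaled by transcript length and library total), put the gene at 432 to 708 TPM in TAM-MG and at 398 to 827 TPM in bulk tumours. Its counts were 206 to 504 in TAM-MG and 24 to 460 in bulk tumours. Atp6v0b, at 737 to 907 TPM in TAM-MG and 300 to 685 TPM in bulk tumours, had 11521 to 16399 counts in TAM-MG and 3479 to 6945 in bulk tumours. Atp6v0c-ps2 itself had 52 to 737 counts in TAM-MG and 4 to 53 in bulk tumours. The counts of Atp6v0c are therefore uncertain, and the part that the pseudogene plays in the gap was not tested.

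Per length, the pump genes spanned a wide range of levels. The TPM tables of the experiments were normalised separately and the bulk table lists fewer genes, 19 of them pump genes, so that levels are ordered within each experiment. In TAM-MG the highest level was that of Atp6v0b (817 ± 73.7 TPM, mean ± SD, n = 5), followed by Atp6v0e (696 ± 136 TPM), Atp6v1f (674 ± 110 TPM), Atp6v0c (553 ± 112 TPM) and Atp6v1g1 (480 ± 111 TPM). Atp6v0e and Atp6v1f differed by less than their SD, as did Atp6v0c and Atp6v1g1, while Atp6v1f and Atp6v0c differed by more than either SD. Atp6v0b lay above Atp6v0e by more than its own SD and by less than that of Atp6v0e. The catalytic A subunit, Atp6v1a, was at 27.5 ± 11.7 TPM and the regulatory H subunit, Atp6v1h, at 38.9 ± 6.12 TPM. In bulk tumours the order was led by Atp6v0c (634 ± 167 TPM, n = 6) and Atp6v0b (513 ± 131 TPM), and Atp6v1a was at 63.4 ± 16.99 TPM. Atp6v1f was listed at 0 TPM in the bulk fl/fl tumour 35 although it had 4249 counts there. Its other bulk libraries lay between 320 and 488 TPM.

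The first question was whether loss of Rheb1 changed pump transcripts in the whole tumour. A gene counted as called where its adjusted p was under 0.05 and its fold change 1.5 or more. No pump gene met this in edgeR's quasi-likelihood test, and nor did any of the 17028 genes tested (0%). Of 20 pump genes tested, 13 had a positive and 7 a negative log2 fold change, with a median of 0.25 against 0.0034 over all genes tested. At an unadjusted p under 0.05, 1 of the 20 was higher (3.82% of all genes) and 0 were lower (5.19% of all genes). DESeq2 called 140 genes higher and 334 lower and edgeR's likelihood ratio test 123 and 260, of which 0 were pump genes in either. No pump gene separated the groups: 0 of 20 had all Δ/Δ tumours above (7.82% of all genes) or below (9.23% of all genes) the fl/fl tumours.

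The 4 smallest p values were those of Atp6v1d, Atp6v1g2, Atp6v0a1 and Atp6v1g1. Atp6v1d, the D subunit of the central rotor shaft, had 162, 213 and 124 CPM in Δ/Δ tumours 26, 36 and 37, against 83.1, 85.9 and 128 CPM in fl/fl tumours 35, 38 and 110. The lowest Δ/Δ tumour, 37, lay below the highest fl/fl tumour, 110. Its log2 fold change was 0.73 ± 0.32 (SE), with an unadjusted p of 0.046 and an adjusted p of 0.54 by edgeR's quasi-likelihood test. Besides, Atp6v1d passed the unadjusted threshold without Δ/Δ tumour 37 or fl/fl tumour 110, and did not without any 1 of the other 4.

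Atp6v1g2, the G isoform of neurons, had 227, 265 and 65.7 CPM in the Δ/Δ tumours, against 98.7, 82.3 and 118 CPM in the fl/fl tumours. Δ/Δ tumour 37 was the lowest of all 6 and the other 2 Δ/Δ tumours were the highest. The log2 fold change was 0.88 ± 0.45 (SE) with an adjusted p of 0.62, and without tumour 37 it was 1.28 ± 0.29 with an adjusted p of 0.14. Atp6v1g1, the G isoform of most cells, had 178, 116 and 104 CPM in Δ/Δ tumours and 104, 58.8 and 98.0 CPM in fl/fl tumours (log2 fold change 0.59 ± 0.35, adjusted p = 0.67). The lowest Δ/Δ value and the highest fl/fl value were at the same level. Atp6v0a1, the a isoform known from synaptic vesicles, had 85.2, 130 and 61.1 CPM in Δ/Δ tumours and 41.6, 77.1 and 52.4 CPM in fl/fl tumours, groups that overlapped (log2 fold change 0.67 ± 0.38, adjusted p = 0.65).

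**Figure D1:**
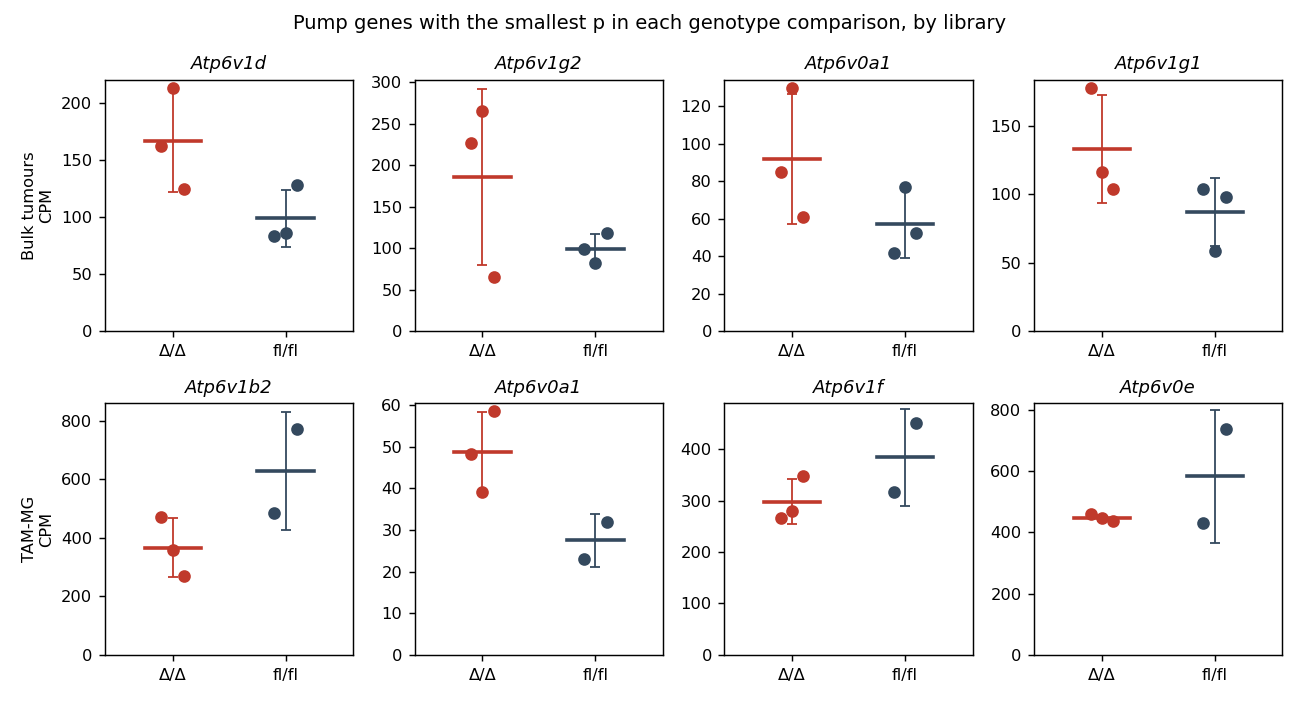
CPM (TMM scale of all 11 libraries) of the 4 pump genes with the smallest p in bulk tumours (top row) and in TAM-MG (bottom row), with Δ/Δ on the left and fl/fl on the right of each panel. Points are libraries, bars the group mean and whiskers ± 1 SD. In bulk tumours the groups overlap in each panel, and in TAM-MG Atp6v1b2 and Atp6v0a1 separate the groups.

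Leaving out Δ/Δ tumour 37 brought 6 pump genes to an unadjusted p under 0.05, all higher: Atp6v1g2, Atp6v1d, Atp6v1c2, Atp6v1e1, Atp6v0a1 and Atp6v1b2, with adjusted p of 0.14 to 0.37. These were 6 of 22 pump genes tested, and 5.27% of all genes were higher at that threshold in the same fit. Of the 6, Atp6v1c2 was not tested with all tumours. It had 14 and 18 counts in Δ/Δ tumours 26 and 36 and at most 1 in any fl/fl tumour. It passed the filter on low counts only through those Δ/Δ tumours, so it had to be higher and its test supports nothing. That tumour was also the lowest of all 6 in neuronal, astrocyte and oligodendrocyte markers. The 12 neuronal markers summed to 3975, 4060 and 1684 CPM in Δ/Δ tumours 26, 36 and 37, against 2207, 2364 and 3050 CPM in fl/fl tumours 35, 38 and 110. The same 2 tumours, 26 and 36, were thus highest in Atp6v1g2 and in the neuronal markers, and tumour 37 was lowest in both. Of the 12 neuronal markers, 9 had a positive log2 fold change (median 0.30) and 1 was higher at an unadjusted p under 0.05. All 12 had counts in every bulk tumour. The 5 astrocyte markers summed to 1016, 1537 and 455 CPM in Δ/Δ tumours 26, 36 and 37 and to 1071 to 1366 CPM in fl/fl tumours, and the 5 oligodendrocyte markers to 2335, 2651 and 1673 CPM in Δ/Δ tumours and to 2546 to 2612 CPM in fl/fl tumours. The part of brain tissue in these values was not tested. In bulk tumours more cells of a type and more RNA per cell cannot be told apart.

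**Figure D2:**
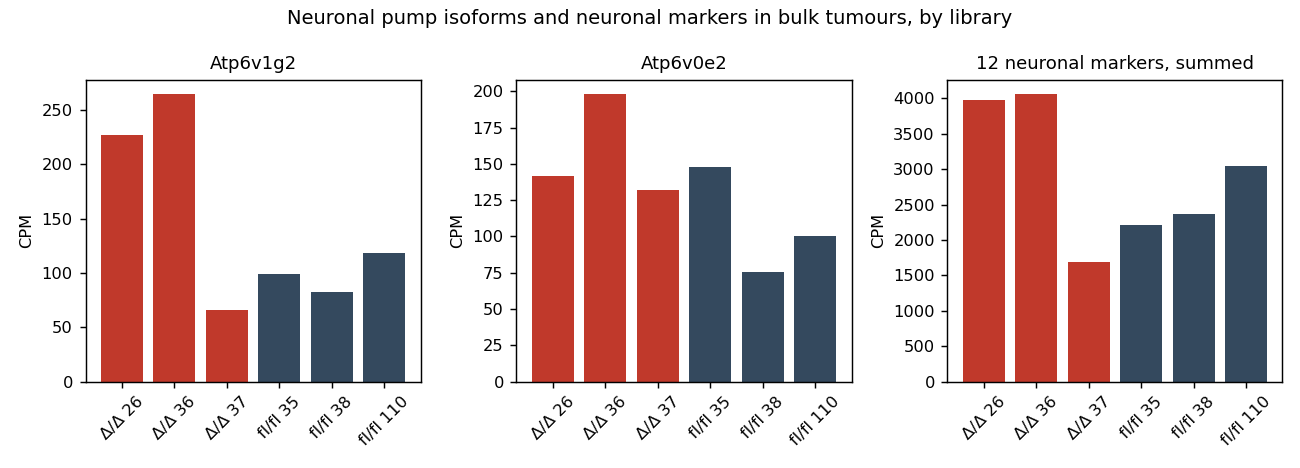
CPM in each of the 6 bulk tumours of Atp6v1g2 (left), Atp6v0e2 (middle) and the sum of 12 neuronal markers (right), with Δ/Δ tumours in red and fl/fl tumours in dark blue. Atp6v1g2 follows the marker sum in the Δ/Δ tumours, with tumour 37 the lowest of all 6 in both panels. In Atp6v0e2 tumour 37 (132 CPM) is the lowest Δ/Δ tumour but lies above fl/fl tumours 38 and 110 (75.3 and 101 CPM).

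Atp6v0e2, the e isoform that is abundant in brain, had 141, 198 and 132 CPM in Δ/Δ tumours, against 148, 75.3 and 101 CPM in fl/fl tumours. These groups overlapped through fl/fl tumour 35. On the TPM scale they did not, with 158, 139 and 150 TPM in Δ/Δ tumours and 62.1, 94.9 and 80.6 TPM in fl/fl tumours. How many of all genes separate the groups in TPM was not counted, and in CPM 7.82% had all Δ/Δ tumours above. The log2 fold change of Atp6v0e2 was 0.52 ± 0.34 (SE) from counts (adjusted p = 0.70). By limma on log2(TPM + 1) it was 0.92, with an unadjusted p of 0.012 and an adjusted p of 0.35.

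Of the 10 pump genes called higher in TAM-MG, 9 were tested between genotypes in bulk tumours, where 6 had a positive log2 fold change (0.02 to 0.59) and 3 a negative one (-0.94 to -0.24). The values of these 3 follow. Atp6v0a2, an a isoform of Golgi and endosomes, had 4.86, 36.8 and 17.2 CPM in Δ/Δ tumours and 30.7, 47.2 and 33.8 CPM in fl/fl tumours. Atp6ap2, which encodes the prorenin receptor, an accessory protein of the pump, had 180, 160 and 105 CPM in Δ/Δ tumours and 179, 135 and 340 CPM in fl/fl tumours. Atp6v0e had 67.2, 135 and 227 CPM in Δ/Δ tumours and 117, 231 and 155 CPM in fl/fl tumours. In each of the 3 the groups overlapped. Without Δ/Δ tumour 36, Atp6v0a2 reached an unadjusted p of 0.029 (log2 fold change -1.77 ± 0.69, adjusted p = 0.48). The microglia and macrophage markers, all 12 with a negative log2 fold change (median -1.61) and 10 lower at an unadjusted p under 0.05, summed to 691 to 1397 CPM in Δ/Δ tumours and to 2147 to 3889 CPM in fl/fl tumours. All 12 had counts in every bulk tumour, and their part in these values was not tested.

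The second question was whether the deletion changed pump transcripts in the microglia themselves. In TAM-MG no pump gene was called, and nor was any of the 14872 genes tested by edgeR's quasi-likelihood test (0%). Of 19 pump genes tested, 6 had a positive and 13 a negative log2 fold change, with a median of -0.15 against 0.08 over all genes tested. With libraries brought to the same mean of log2 CPM the medians were -0.57 for pump genes and -0.34 over all genes, and 5 pump genes were lower at an unadjusted p under 0.05 (8.22% of all genes under that scaling). At an unadjusted p under 0.05, 0 of the 19 were higher (5.47% of all genes) and 0 were lower (2.3% of all genes). DESeq2 called 387 genes higher and 90 lower and the likelihood ratio test 175 and 70, of which 0 were pump genes, and in both 1 pump gene was lower at an unadjusted p under 0.05. Without the fl/fl sample 78 the median was 0.12 for pump genes and 0.39 over all genes tested. The sign of the pump gene median thus rests on that library, while it lay below the median over all genes with and without it.

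Atp6v1b2 encodes the B subunit used in most cells, which shares the ATP-hydrolysing head with A. It had 471, 359 and 270 CPM in Δ/Δ samples 54, 63 and 65, against 485 and 772 CPM in fl/fl samples 74 and 78. All Δ/Δ samples lay below both fl/fl samples, with the nearest pair, 54 and 74, close together. The log2 fold change was -0.82 ± 0.34 (SE), with an unadjusted p of 0.053 and an adjusted p of 0.55. It was the 1 pump gene of 19 with all Δ/Δ samples below fl/fl (11.5% of all genes). The unadjusted p was 0.024 without Δ/Δ sample 54 and 0.040 without fl/fl sample 74, and without fl/fl sample 78 the log2 fold change was -0.48.

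In the other direction 2 of the 19 pump genes, Atp6v0a1 and Atp6v0c, had all Δ/Δ samples above fl/fl (14.6% of all genes). Atp6v0a1 had 48.2, 39.1 and 58.5 CPM in Δ/Δ samples and 22.9 and 32.0 CPM in fl/fl samples (log2 fold change 0.77 ± 0.43, adjusted p = 0.67). Atp6v0c, whose counts are uncertain, had 14.95 to 24.7 CPM in Δ/Δ samples and 13.2 and 13.4 CPM in fl/fl samples, whereas its TPM values overlapped.

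Atp6v1f, the F subunit of the central shaft, had 267, 279 and 349 CPM in Δ/Δ samples and 317 and 450 CPM in fl/fl samples (log2 fold change -0.41 ± 0.27, adjusted p = 0.76). Atp6v0e had 459, 446 and 438 CPM in Δ/Δ samples and 429 and 735 CPM in fl/fl samples (log2 fold change -0.43 ± 0.29, adjusted p = 0.77). In both genes the groups overlapped. For Atp6v0e the size of the difference depended on fl/fl sample 78. Without it the log2 fold change was -0.02, where the median over all genes tested was 0.39. Atp6v0b differed least, with 642, 720 and 814 CPM in Δ/Δ samples and 606 and 794 CPM in fl/fl samples.

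**Figure D3:**
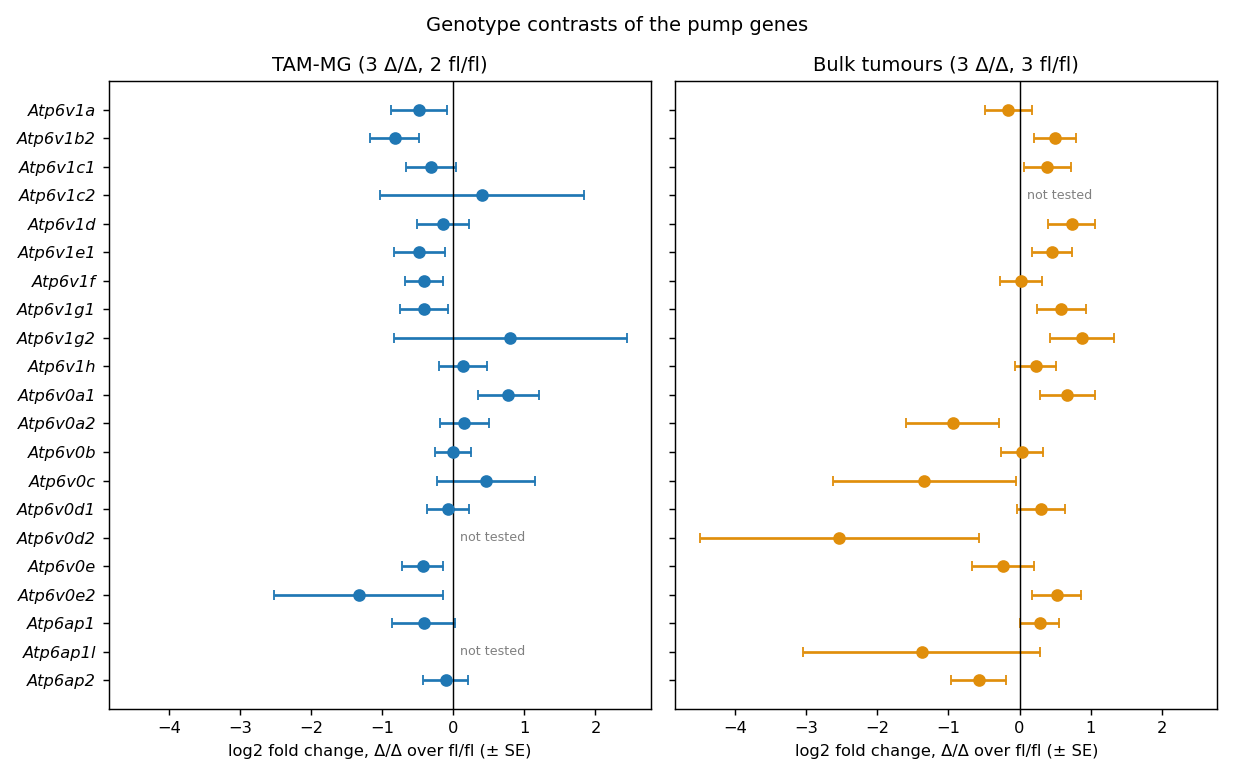
Log2 fold change of Δ/Δ over fl/fl (horizontal axis, whiskers ± 1 SE) for each pump gene tested in TAM-MG (left) and in bulk tumours (right), with V1 subunits at the top, then V0 subunits and accessory genes. Atp6v1b2 lies at -0.82 in TAM-MG and at 0.50 in bulk tumours, and no gene was called in either panel.

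Whether the genotype effect differed between sorted cells and bulk tumours was tested for 23 pump genes in 1 fit of all 11 libraries. None was called (0.225% of all 21342 genes were called). At an unadjusted p under 0.05, 1 pump gene was lower, Atp6v1b2 (2.93% of all genes), and 0 were higher (9.3% of all genes). The difference for Atp6v1b2 was -1.30 ± 0.48 on the log2 scale, with an unadjusted p of 0.019 and an adjusted p of 0.33. Its bulk values, 267, 325 and 206 CPM in Δ/Δ tumours and 224, 156 and 176 CPM in fl/fl tumours, gave a log2 fold change of 0.50 ± 0.30. The difference was -1.07 without Δ/Δ sample 65 and -0.87 without fl/fl sample 78, and missed the unadjusted threshold in both. The next smallest p belonged to Atp6v0e2 (-1.79 ± 0.92, adjusted p = 0.47) and Atp6v1e1, which encodes the E subunit of the outer stalks (-0.89 ± 0.48, adjusted p = 0.49). The difference for Atp6v0e2 rested on TAM-MG fl/fl sample 74 and was 0.35 without it.

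The third comparison set the sorted cells against the whole tumour. Sorting of fresh cells and extraction from fixed tissue cannot be told apart from cell type here. Over all 21342 genes the median log2 fold change of TAM-MG over bulk was -0.89, and it was -0.23 when libraries were brought to the same mean of log2 CPM. Of the 23 pump genes, 10 were called higher in TAM-MG (20.5% of all genes) and 6 lower (32.4% of all genes), with 12 positive, 11 negative and a median of 0.23. The counts of non-overlapping genes were 6 with all TAM-MG samples above all bulk tumours (14.6% of all genes) and 4 with all below (20.2% of all genes). With the same mean of log2 CPM 13 were called higher (27.5% of all genes) and 5 lower (25% of all genes). Of the 6 called lower, Atp6ap1l and Atp6v0d2 had 0 and 1 count in TAM-MG and passed the filter on low counts only through the bulk tumours, so that they had to differ and their calls support nothing. The same holds for the tests of Atp6v0a4 and Atp6v1b1, which had 0 counts in TAM-MG.

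Of the subunits of the membrane sector that most cells use, Atp6v0b and Atp6v0e were higher in TAM-MG, while Atp6v0c and Atp6v0d1 were not called. Atp6v0b had 606 to 814 CPM in the 5 TAM-MG samples, median 720, and 186 to 302 CPM in the 6 bulk tumours, median 234, a log2 fold change of 1.58 ± 0.21 (adjusted p = 0.00014). As deposited, the same gene averaged 817 TPM in TAM-MG and 513 TPM in bulk tumours. For limma between the experiments, TPM of the genes listed in both were rescaled to a common total in each library. On these rescaled TPM Atp6v0b was 0.24 higher on the log2 scale and was not called (adjusted p = 0.34 by limma). Atp6v0e had 429 to 735 CPM in TAM-MG and 67.2 to 231 CPM in bulk tumours (log2 fold change 1.72 ± 0.32, adjusted p = 0.0013). Its brain isoform Atp6v0e2 ran the other way, with 3.18 to 24.2 CPM in TAM-MG and 75.3 to 198 CPM in bulk tumours (log2 fold change -3.87 ± 0.55, adjusted p = 0.00023). In none of these 3 genes did the samples of the experiments overlap.

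Among the a isoforms, which anchor the outer stalks and direct the pump to its membrane, Atp6v0a2 and Atp6v0a1 were called in opposite directions. Atp6v0a2 had 207 to 346 CPM in TAM-MG and 4.86 to 47.2 CPM in bulk tumours, a log2 fold change of 3.34 ± 0.44 (adjusted p = 0.00015). Its exons share 663 bases with the antisense gene 4930404A12Rik, and the strand setting of the counts is not given in the sources used here. Atp6v0a1 had 22.9 to 58.5 CPM in TAM-MG and 41.6 to 130 CPM in bulk tumours (log2 fold change -0.99 ± 0.32, adjusted p = 0.023), ranges that overlapped. The adjusted p of Atp6v0a1 was 0.054 without Δ/Δ tumour 36, 0.0584 without TAM-MG fl/fl sample 74 and 0.435 with the same mean of log2 CPM, where the log2 fold change was -0.2976. Atp6v0a4, the a isoform of kidney, had 0 counts in TAM-MG and counts in 2 of 6 bulk tumours (39 in Δ/Δ tumour 37 and 66 in fl/fl tumour 38). With counts pooled over each experiment and a floor of 3 counts in TAM-MG, it was at least 27.8-fold lower there. Without fl/fl tumour 38 it was at least 13.1-fold lower. This bound rests on the 2 tumours with counts and does not hold for the others. The test did not call the gene (adjusted p = 0.070). Part of its exons overlap D630045J12Rik on the same strand.

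Of the peripheral subunits with isoforms, the G pair split as the e pair did. Atp6v1g1 had 270 to 530 CPM in TAM-MG and 58.8 to 178 CPM in bulk tumours (log2 fold change 1.71 ± 0.27, adjusted p = 0.00043). The neuronal Atp6v1g2 had 30.4, 15.7, 11.8, 1.61 and 0.813 CPM in TAM-MG samples 65, 78, 54, 63 and 74, and 65.7 to 265 CPM in bulk tumours (log2 fold change -3.64 ± 0.87, adjusted p = 0.0057). Neither pair of ranges overlapped. All 12 neuronal markers were called lower in TAM-MG, with sums of 38.5 to 55.2 CPM in TAM-MG and of 1684 to 4060 CPM in bulk tumours. None of the 12 was at 0 in every TAM-MG sample, and 3 had counts in all 5. The exons of Atp6v1g2 share 144 bases with Nfkbil1 on the opposite strand, and the part of neuronal RNA or of Nfkbil1 in these values was not tested.

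Atp6v1b2 had 270 to 772 CPM in TAM-MG and 156 to 325 CPM in bulk tumours (log2 fold change 1.11 ± 0.24, adjusted p = 0.0030), with overlap between Δ/Δ sample 65 and Δ/Δ tumour 36. In libraries of Δ/Δ mice alone the log2 fold change was 0.41 and was not called (adjusted p = 0.37). On the rescaled TPM limma gave 0.57 and no call (adjusted p = 0.089). Atp6v1b1, the B isoform of kidney, had 0 counts in TAM-MG and 4 to 20 counts in 3 of 6 bulk tumours. From pooled counts it was at least 9.0-fold lower in TAM-MG and at least 4.35-fold without Δ/Δ tumour 36, a bound that rests on the 3 tumours with counts. It was not called (adjusted p = 0.062), but was with the likelihood ratio test (adjusted p = 0.0304) and with library size only (0.0498). Since Atp6v1b1 passed the filter on low counts only through the bulk tumours, these calls support nothing. Atp6v1c1, the C subunit of most cells, which links the head to the membrane sector, had 175 to 370 CPM in TAM-MG and 94.4 to 202 CPM in bulk tumours. Its log2 fold change was 0.84 ± 0.27 (adjusted p = 0.022), and the call was lost without any 1 of 8 libraries (adjusted p = 0.0534 to 0.309), all but Δ/Δ tumours 26 and 36 and TAM-MG fl/fl sample 74. Atp6v1c2 had 16 to 89 counts in TAM-MG samples and 0 to 18 in bulk tumours (log2 fold change 4.39 ± 1.44, adjusted p = 0.026). Its TPM was listed at 0 in 4 of the 5 TAM-MG samples, and 50 bases of its exons overlap Pdia6 on the opposite strand, which had 7588 to 16463 counts in TAM-MG and 1122 to 2913 in bulk tumours. The call of Atp6v1c2 was lost without fl/fl tumour 38 or 110 (adjusted p = 0.0602 and 0.0585) and without TAM-MG fl/fl sample 74 or 78 (adjusted p = 0.0719 and 0.0555).

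**Figure D4:**
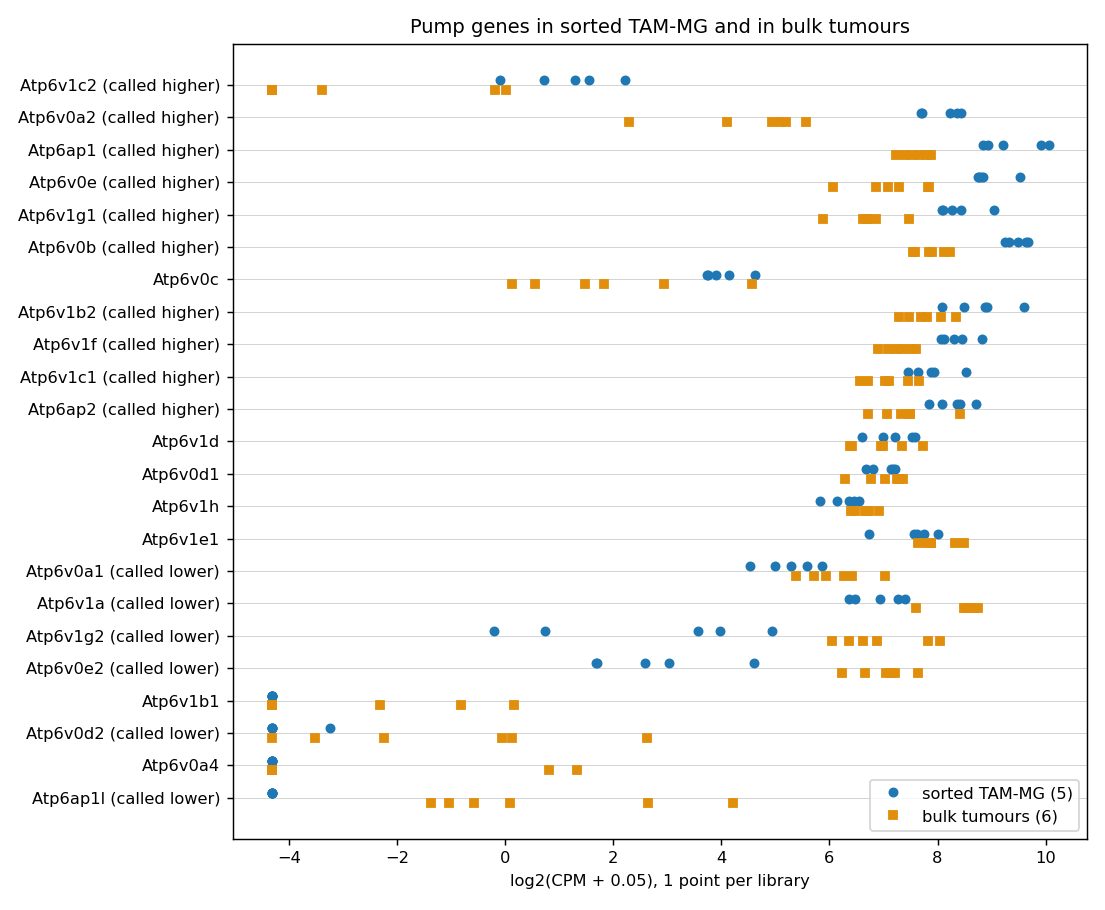
log2(CPM + 0.05) of the 23 pump genes with counts, with 1 circle for each of the 5 TAM-MG samples (blue, upper line of each gene) and 1 square for each of the 6 bulk tumours (orange, lower line), ordered by log2 fold change from the top. Points at the far left are libraries without counts. Atp6v0a2, Atp6ap1, Atp6v0e, Atp6v1g1, Atp6v0b and Atp6v1f lie to the right in TAM-MG with no overlap, and Atp6v1a, Atp6v1g2, Atp6v0e2 and Atp6ap1l lie to the left.

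The remaining subunits did not all follow the genes above. Atp6v1a had 82.8 to 169 CPM in TAM-MG, median 122, and 194 to 430 CPM in bulk tumours, median 387, without overlap (log2 fold change -1.52 ± 0.28, adjusted p = 0.0014). Atp6v1a was thus lower in TAM-MG while its partner in the ATP-hydrolysing head, Atp6v1b2, was higher. Atp6v1f had 267 to 450 CPM in TAM-MG and 120 to 194 CPM in bulk tumours (log2 fold change 1.11 ± 0.22, adjusted p = 0.0017). It was not called from the rescaled TPM (adjusted p = 0.253 by limma), where fl/fl tumour 35 is listed at 0. Atp6v1e1 (log2 fold change -0.39 ± 0.24, adjusted p = 0.18) was not called, and nor were Atp6v1d, Atp6v1h, Atp6v0c and Atp6v0d1. Atp6v0d1, the d isoform of most cells, had 102 to 149 CPM in TAM-MG and 78.02 to 164 CPM in bulk tumours (log2 fold change -0.01 ± 0.25, adjusted p = 0.9998). With the same mean of log2 CPM its log2 fold change was 0.67 and was called. On the rescaled TPM it was -0.92 and was called lower (adjusted p = 0.0114 by limma). That of Atp6v1e1 was 0.28 with the same mean of log2 CPM, and it was called lower with library size only (-0.97, adjusted p = 0.00676) and where every library had to reach 10 counts (-0.64, adjusted p = 0.0355). Atp6v0d2, the d isoform known from osteoclasts, had 1 count over all TAM-MG samples and 167 over bulk tumours, of which 119 were in fl/fl tumour 110. This is 133-fold lower in TAM-MG with a 95% exact counting interval of 23.5 to 5269, and 45.02-fold without fl/fl tumour 110. Its call, which the filter on low counts favours, was lost without Δ/Δ tumour 37 (adjusted p = 0.0508), TAM-MG fl/fl sample 74 (0.122) or TAM-MG fl/fl sample 78 (0.106).

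Of the accessory genes, Atp6ap1 and Atp6ap2 were called higher. Atp6ap1, which encodes the Ac45 protein of the assembled pump, had 461 to 1064 CPM in TAM-MG and 149 to 234 CPM in bulk tumours, without overlap (log2 fold change 1.92 ± 0.26, adjusted p = 0.00018). Its value in fl/fl tumour 35, which held the Xist counts, was 170 CPM, between those of the other bulk fl/fl tumours (149 and 201 CPM). Atp6ap2 had 231 to 421 CPM in TAM-MG and 105 to 340 CPM in bulk tumours (log2 fold change 0.83 ± 0.29, adjusted p = 0.033). That call was lost without any 1 of 9 of the 11 libraries (adjusted p = 0.0546 to 0.308), all but Δ/Δ tumour 36 and fl/fl tumour 110. Atp6ap1l, named for its likeness to Atp6ap1, had 0 counts in TAM-MG. It had 17, 116 and 10 counts in Δ/Δ tumours and 406, 9 and 12 in fl/fl tumours. From pooled counts, most of them in fl/fl tumour 35 and Δ/Δ tumour 36, it was at least 151-fold lower in TAM-MG. Without fl/fl tumour 35 it was at least 52.5-fold lower.

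The isoforms of a subunit were also compared as shares of their summed TPM, which is a description without a test. Atp6v1g2 made up 1.45 ± 1.66% of the G subunit transcripts in TAM-MG (mean ± SD, n = 5) and 43.3 ± 10.45% in bulk tumours (n = 6). Its share in bulk tumours was 50.3, 54.5 and 24.5% in Δ/Δ tumours 26, 36 and 37, and 39.95 to 46.1% in fl/fl tumours. Atp6v0e2 made up 1.66 ± 0.738% of the e subunit transcripts in TAM-MG and 34.1 ± 15.02% in bulk tumours. Its share was 58.8, 43.9 and 35.1% in Δ/Δ tumours, above the 21.7 to 23.0% of the fl/fl tumours, without overlap. From counts per kilobase of exon the Δ/Δ tumours (76.6, 69.5 and 47.5%) and the fl/fl tumours (66.4, 33.7 and 50.3%) overlapped, so that this separation depends on the measure.

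For the a subunit, Tcirg1, the a3 isoform of lysosomes and osteoclasts, was set beside the members although its symbol falls outside the rule. On the TPM scale Tcirg1 was the most abundant of the 3 in all libraries, at 114 to 161 TPM in TAM-MG and 34.3 to 68.0 TPM in bulk tumours. Its share of the summed TPM was 66.5 ± 6.21% in TAM-MG and 64.6 ± 8.98% in bulk tumours. From counts per kilobase Atp6v0a1 exceeded Tcirg1 in 3 of the 6 bulk tumours, with shares of 67.3% for Atp6v0a1 and 28.9% for Tcirg1 in Δ/Δ tumour 26, 49.0 and 37.4% in Δ/Δ tumour 36 and 42.7 and 31.9% in fl/fl tumour 38. On the TPM scale Atp6v0a2 made up 24.9 ± 7.30% in TAM-MG and 7.25 ± 4.245% in bulk tumours, and Atp6v0a1 made up 8.56 ± 4.003% in TAM-MG and 28.1 ± 9.31% in bulk tumours. Within bulk tumours the Atp6v0a2 share was 0.645, 6.44 and 4.74% in Δ/Δ tumours 26, 36 and 37, below the 9.10, 12.6 and 9.98% in fl/fl tumours 35, 38 and 110. From counts per kilobase these groups did not overlap either, with 3.75 to 13.6% in Δ/Δ tumours and 18.4 to 25.4% in fl/fl tumours. How often such shares separate the groups among other genes was not counted. In CPM, 9.23% of all genes had all Δ/Δ tumours below the fl/fl tumours. The CPM of Atp6v0a2 overlapped (adjusted p = 0.72 by edgeR's quasi-likelihood test). Within TAM-MG the Atp6v0a2 shares of the genotypes overlapped, at 17.4 to 27.6% in Δ/Δ samples and 18.9 and 35.6% in fl/fl samples. From counts per kilobase the Atp6v0a2 shares were 43.2% in TAM-MG and 15.2% in bulk tumours.

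**Figure D5:**
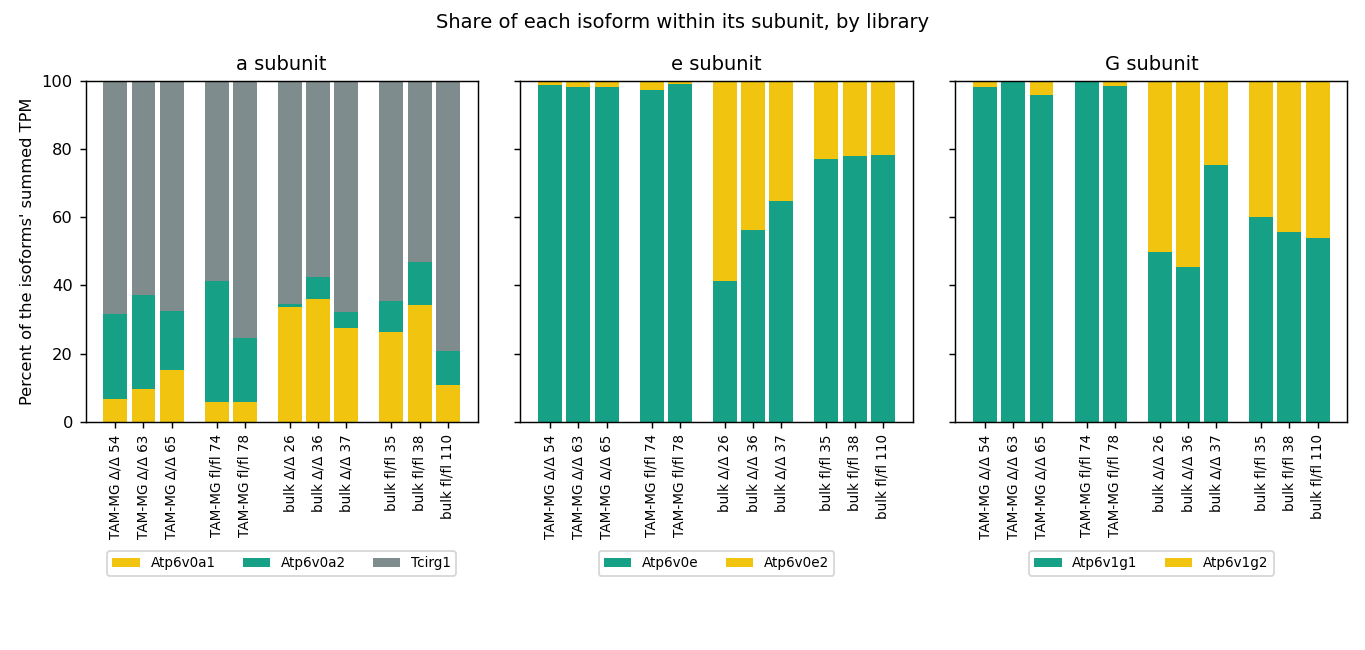
Share of each isoform, in percent of the summed TPM of the isoforms of its subunit, with 1 bar per library and the groups in the order TAM-MG Δ/Δ, TAM-MG fl/fl, bulk Δ/Δ and bulk fl/fl. Atp6v0e2 and Atp6v1g2 (yellow) are at most 2.73% and 4.14% in TAM-MG and at least 21.7% and 24.5% in bulk tumours.

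Other genes of the pathway were counted on lists of genes grouped by function, chosen with earlier results of these data known. Of 18 genes for assembly and partners of the pump, 15 were tested in either genotype comparison and 0 were called. In bulk tumours their median log2 fold change was 0.08 (9 positive, 6 negative), and in TAM-MG it was 0.19 (11 positive, 4 negative), with 0 at an unadjusted p under 0.05 in each. Of 34 lysosome genes of the TFEB network, 33 were tested in bulk tumours, with a median of -0.38 and 10 positive against 23 negative, and 32 in TAM-MG, with a median of -0.07 and 15 positive against 17 negative. None was called in either. At an unadjusted p under 0.05, 1 lysosome gene was lower in bulk tumours and 1 was higher in TAM-MG. Between TAM-MG and bulk tumours, 24 of the 33 lysosome genes were called higher and 3 lower (median 1.81), and 5 of 16 assembly and partner genes were called higher and 5 lower (median -0.73), beside 20.5% higher and 32.4% lower of all genes (median -0.89). The difference between the lists was not tested.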

How the data were processed

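Per the labels, libraries followed SmartSeq2 with Nextera XT, and paired reads were 75 bases long. The authors deposited gene counts and, in separate tables for each experiment, TPM values, which are transcript abundances scaled by transcript length and library total. The submitters' processing notes name STAR and Salmon, and versions and strand settings are not given in the sources used here. The deposited TAM-MG values, counts and TPM alike, also hold an unnamed row, which was left out. In each sample it equals 100% of the total of the named genes. Genes passing filterByExpr (minimum count 10, total 15) were fitted with edgeR 4.0.16 (quasi-likelihood test, TMM factors, two-sided p adjusted by Benjamini-Hochberg over all genes tested) in R 4.3.3, separately for bulk tumours and TAM-MG, and over all 11 libraries for TAM-MG against bulk tumours. DESeq2 1.42.0, edgeR's likelihood ratio test and limma 3.58.1 on log2(TPM + 1) or log2(TPM + 0.1), for genes with at least 1 TPM in 2 libraries, were alternatives, beside other scalings and filters, single genotypes and leaving out each library. For limma between TAM-MG and bulk tumours, TPM of the genes listed in both experiments were rescaled to a common total in each library. In all, 0 columns of other samples were present.

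The members and lists were chosen with earlier results of these data known. Full statistics are given, in each genotype comparison, for genes at an unadjusted p under 0.05 or else the 4 with the smallest p, for called genes and isoforms between TAM-MG and bulk tumours, and for the 3 smallest p of the difference. Atp6v0a2, Atp6ap2, Atp6v0e2, Atp6v0b and Atp6v0c in the genotype comparisons were named after their values were seen. The labels number the samples without saying that each is a separate mouse, so p measures only the spread between these samples, which may be technical. Intervals and floors cover counting error only.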

Additional observations from a re-analysis of the deposited data

Results flagged for a closer look

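Single libraries stood far from the rest of their experiment in 7 of 39 sets of pump gene values examined. The rule was set to flag about 1 in 20 independent sets. These sets share the same libraries and some lie near 0 CPM, so the number of flags cannot be set against that rate. Among bulk tumours, fl/fl tumour 35 had 18.5 CPM of Atp6ap1l, against 0.337 to 6.21 CPM in the others. The fl/fl tumour 110 had 340.1 CPM of Atp6ap2, against 105 to 180 CPM in the others, 23.7 CPM of Atp6v0c, against 1.05 to 7.65 CPM, and 6.13 CPM of Atp6v0d2, against 0 to 1.05 CPM. Δ/Δ tumour 37 had 193.8 CPM of Atp6v1a, against 360 to 430 CPM in the others. Among TAM-MG samples, fl/fl sample 78 had 735.1 CPM of Atp6v0e, against 429 to 459 CPM in the others. The fl/fl sample 74 had 24.2 CPM of Atp6v0e2, against 3.18 to 8.17 CPM in the others. The causes were not tested.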

How the results depend on the processing

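No paired analysis was possible because the groups share no replicate number. No pump gene was called in either genotype comparison, or for the difference between them, under any alternative run. In bulk tumours 1 pump gene was higher at an unadjusted p under 0.05, against 0 with DESeq2 size factors or library size only, 2 where every library had to reach 10 counts, and 0 to 6 when 1 library was left out, which gave 0 to 1 lower. In TAM-MG 0 were lower, against 1 with DESeq2, with all 11 libraries in 1 fit, with 10 counts demanded of every library or with the likelihood ratio test, 5 with the same mean of log2 CPM, and 0 to 1 with 1 library left out. Between TAM-MG and bulk tumours 10 were called higher, against 6 with library size only, 6 with limma on log2(TPM + 0.1), 5 on log2(TPM + 1), 13 with the same mean of log2 CPM and 7 to 10 with 1 library left out. The 6 called lower include Atp6ap1l and Atp6v0d2, whose calls support nothing. Their number became 9 with library size only, where 8562 of all 21342 genes were called lower. It was 7 with the likelihood ratio test or limma on TPM, 2 in fl/fl libraries only and 4 to 6 with 1 library left out. Atp6v0d1 turned from -0.01 to 0.67 with the same mean of log2 CPM and to 0.0715 in fl/fl libraries only, and lay between -0.2839 and 0.0102 with 1 library left out. Atp6v1e1 turned from -0.39 to 0.2788 with the same mean, and was called lower with library size only (-0.97) and where every library had to reach 10 counts (-0.64). For the difference of the genotype effect, 1 was lower, against 2 where every library had to reach 10 counts, 0 with limma on log2(TPM + 1) or log2(TPM + 0.1), 7 with the same mean, and 0 to 2 with 1 library left out, which gave 0 to 1 higher. That of Atp6v0e2 ranged from -2.554 to 0.3485 with 1 library left out. From counts per kilobase the shares were 41.4% for Atp6v0a1, 15.2% for Atp6v0a2 and 57.3% for Atp6v0e2 in bulk tumours, and 43.2% for Atp6v0a2 and 2.94% for Atp6v0e2 in TAM-MG. The causes were not tested.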
